A study of Mus musculus with 2 samples.

Results

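Transcripts of 9 Krüppel-like factor genes (Klf2, Klf3, Klf4, Klf6, Klf7, Klf9, Klf10, Klf11 and Klf13) were described in activated mouse macrophages. They were taken by symbol from the 16263 genes listed in both deposited tables, as regulators of the state of macrophage activation. Macrophages were grown from C57BL/6 bone marrow for 5 days with M-CSF, the cytokine that supports macrophage growth. For 6 h they received 20 ng/ml interferon-γ and 100 ng/ml lipopolysaccharide, stimuli of the classical (M1) state, together with mCD47.ex, which the labels do not explain. One library came from WT mice and the other from mice of the genotype SIRPalpha-/-, which lack by label the inhibitory receptor for CD47. Both groups received every agent, so neither shows resting cells or cells without mCD47.ex. Each library was made from the pooled cells of 5 mice, and the targeted allele is not described in the sources used here.

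Krüppel-like factors (KLFs) are transcription factors that bind GC-rich and CACCC-type DNA through zinc fingers at the end of the protein. They are commonly divided by partner proteins into an activator-type group, a group that recruits the corepressor CtBP, and a group that recruits the corepressor Sin3A. In macrophages KLF2 and KLF4 are known to restrain inflammatory genes, KLF4 also to favour alternative activation, and KLF6 to work with NF-κB in the classical state. KLF10 and KLF11 were first described as early genes induced by transforming growth factor β (TGF-β).

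Klf10 was the one KLF transcript of 9 that differed by at least 2-fold between the libraries, being lower in SIRPα-KO. Of all 10092 genes kept, 7.73% differed by as much in either direction, 3.43% higher and 4.30% lower. Here and below, a difference describes these 2 libraries. The 4 activator-type genes, Klf2, Klf4, Klf6 and Klf7, all had higher values in SIRPα-KO, each short of 2-fold. Of all kept genes 56.1% had values above 0, as did Klf8 and Klf16 of the other groups, which are not among the 9 genes. Klf2 passed the filter only through its SIRPα-KO value, and the grouping was made with these values known. Klf3, Klf9, Klf11 and Klf13 lay closest to equality. Klf6 alone made up most of the KLF transcript in both libraries. The 9 genes lie on 9 different chromosomes in the RefSeq gene table, with Klf6 (gene number 23849) on chromosome 13 and Klf10 (gene number 21847) on chromosome 15.

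Levels are in FPKM, fragments scaled by transcript length and by the number of mapped fragments, a unit inferred from the values. A difference is given as that of log2(FPKM + 1), SIRPα-KO minus WT, which shrinks the differences of weakly expressed genes. The filter kept a gene that reached 1 FPKM in either library, and a gene was called when its values with the added 1 were 2-fold or further apart. Each group has 1 library, so no difference has a replicate check and no p-value was computed. The depth, estimated from the steps between low values, came to about 11300000 reads for the WT library and 11200000 for SIRPα-KO. Folds without the added 1 carry approximate 95% intervals (exact Clopper-Pearson, from the estimated reads), which cover counting error only and not the spread between mice or cultures. Fewer cells expressing a gene and less RNA per cell cannot be told apart in these mixed cultures.

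Sirpa, the targeted gene, was at 153.9 FPKM in WT against 71.5 in the library labelled SIRPα-KO, so its transcript was lower and still present there. The female-specific RNA Xist was at 47.5 and 0.91 FPKM, and the Y-linked gene Eif2s3y was listed at 0 in WT and was at 21.4 FPKM in SIRPα-KO, so genotype and sex cannot be told apart. Of 19 macrophage markers analysed all were kept, 0 were called higher and 4 lower, with summed levels of 16000 FPKM in both libraries. Neutrophil markers summed to 653 FPKM in WT against 408 in SIRPα-KO (5 of 15 kept genes lower, 1 higher). The higher one, Chi3l1, was at 3.87 and 53.8 FPKM, against the direction of the sum. Dendritic cell markers summed to 71.1 and 217 FPKM (4 of 10 higher, 1 lower), with Ccl22 alone at 11.2 and 139 FPKM. Lymphocyte markers summed to 97.4 and 91.3 FPKM, stromal and endothelial markers to 953 and 1080, and erythroid and megakaryocyte markers to 77.8 and 190, with Pf4 alone at 37.3 and 148. Among these lists Cd3g, Vpreb1, Tek and Klf1 were listed at 0 in both libraries. The part of these other cells in the KLF results was not tested.

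The DNA just before the start of 8 of the 9 genes was read from a RefSeq promoter table of the GRCm38.p6 build; Klf10 was not matched. The 250 bases before the start are shown, 5′ to 3′, for 3 of the 4 activator-type genes. They were chosen because they had higher values together and carry different promoter elements. Klf7, also higher, had 1 GC box, 0 CCAAT boxes and 0 MEF2 boxes, and is not shown. The part of these elements in the differences was not tested. Capitals mark the GC box (GGGCGG), the CCAAT box (CCAAT) and the MEF2 box, each searched on both strands.

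Klf2 promoter, chr8:72318812-72319061 (plus strand): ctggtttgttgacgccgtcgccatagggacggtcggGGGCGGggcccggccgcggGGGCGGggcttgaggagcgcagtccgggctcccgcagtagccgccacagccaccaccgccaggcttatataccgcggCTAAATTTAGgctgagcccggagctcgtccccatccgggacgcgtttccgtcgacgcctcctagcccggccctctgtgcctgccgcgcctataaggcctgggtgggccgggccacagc

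Klf4 promoter, chr4:55532476-55532725 (minus strand): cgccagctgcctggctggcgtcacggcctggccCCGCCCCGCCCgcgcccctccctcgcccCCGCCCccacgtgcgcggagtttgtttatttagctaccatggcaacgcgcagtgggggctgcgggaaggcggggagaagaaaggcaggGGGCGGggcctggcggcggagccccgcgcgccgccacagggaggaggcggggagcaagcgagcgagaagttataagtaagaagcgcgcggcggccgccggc

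Klf6 promoter, chr13:5861239-5861488 (plus strand): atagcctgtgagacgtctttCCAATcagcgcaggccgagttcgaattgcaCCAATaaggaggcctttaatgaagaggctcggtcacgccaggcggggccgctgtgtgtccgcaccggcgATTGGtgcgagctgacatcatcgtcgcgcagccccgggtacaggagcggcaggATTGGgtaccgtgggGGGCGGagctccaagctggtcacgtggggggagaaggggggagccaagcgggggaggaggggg

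The Klf2 promoter held 2 GC boxes and 1 MEF2 box, the element bound by the MEF2 factors that act downstream of the kinase ERK5. It was the only 1 of the 8 promoters with a MEF2 box, which was present in 0.508% of all 32851 promoters of this length. The Klf4 promoter held 4 GC boxes, the first 2 of which share a base, and no CCAAT box. The Klf6 promoter held 4 CCAAT boxes and 1 GC box, and no base of the 3 sequences lay in more than 1 kind of motif. A GC box was present in 7 of the 8 promoters, all but that of Klf9, against 32.7% of all promoters, and a CCAAT box in 4 of 8 against 33.8%. CACCC, the letters that KLF proteins themselves bind, occurred in 5 of 8 (52.0% of all), with 5 matches in the Klf3 promoter. TATAAA was in 0 of 8 (12.4% of all), TGACGTCA in 0 of 8 (1.55%), the κB site in 0 of 8 (3.90%) and TTCNNNGAA in 1 of 8, that of Klf9 (7.02%). All 8 promoters were above the median GC content of 52.4%, from 59.2% in Klf7 to 78.4% in Klf3. These matches describe letters and not bound sites.

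Klf6 was by far the most abundant KLF transcript, at 248.75 FPKM in WT against 350.6 in SIRPα-KO. It lay at the percentile 96.9 of the 10092 kept genes in WT and 98.0 in SIRPα-KO, and it made up 83.8% and 89.3% of the summed FPKM of the 9 genes. The level was 1.41 times as high in SIRPα-KO (interval 1.38 to 1.44), a log2 difference of 0.49, short of 2-fold. The sum of the other 8 genes was 48.0 FPKM in WT against 41.8 in SIRPα-KO, so the larger KLF total of SIRPα-KO (392 against 297 FPKM) lay in Klf6.

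Klf4, a factor of monocyte differentiation and of alternative activation, was at 2.48 FPKM in WT against 3.51 in SIRPα-KO. These values stand for about 85 and 119 reads, and the fold was 1.42 (interval 1.06 to 1.89). Klf2, a factor of quiescence in monocytes, lymphocytes and endothelium, was at 0.93 and 1.64 FPKM, the lowest of the 9 genes in WT. Klf2 passed the filter only through its SIRPα-KO value, its values stand for about 19 and 34 reads, and its fold of 1.76 had an interval that begins at equality and ends at 3.35. The ratio of Klf4 to Klf2 within a library was 2.67 in WT and 2.14 in SIRPα-KO.

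Klf7, best known from neurons and fat cells, was at 1.34 FPKM in WT against 2.03 in SIRPα-KO, a fold of 1.51 (interval 1.19 to 1.93). Of the 50-base words of its transcript, 40.8% occur on the opposite strand in the annotated RNA Gm26649. Whether counting used strand is not given in the sources used here, so reads of both genes cannot be told apart. The log2 differences of the 4 activator-type genes spanned 0.37 to 0.49, and 0 of 4 were called.

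**Figure D1:**
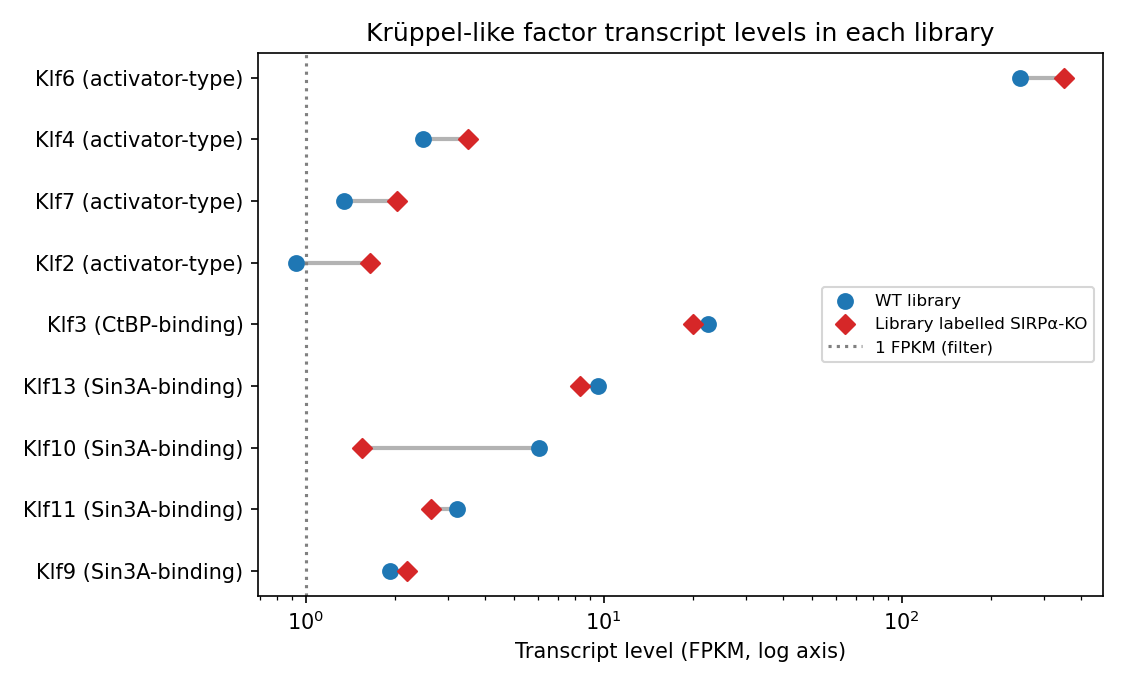
Transcript level of each KLF gene in FPKM (log axis) in the WT library (circles) and the library labelled SIRPα-KO (diamonds), grouped by partner protein; the dotted line is the filter at 1 FPKM. Klf6 stands far to the right at 248.75 and 350.6 FPKM, and the longest connecting line is that of Klf10, from 6.06 to 1.55 FPKM.

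Klf3, a repressor that works through CtBP, was the second most abundant member, at 22.46 FPKM in WT against 20.0 in SIRPα-KO. With about 1325 and 1170 reads the level in WT was 1.12 times that in SIRPα-KO (interval 1.04 to 1.22), a log2 difference of -0.16. Of its 50-base words 6.92% occur on the opposite strand, nearly all of these in Gm20033. Klf8, of the same group but not among the 9 genes, was at 2.90 and 4.83 FPKM, a log2 difference of 0.58 in the other direction and also short of 2-fold. It was chosen for mention after its values were seen.

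Among the genes of the Sin3A-binding group, Klf10 was at 6.06 FPKM in WT against 1.55 in SIRPα-KO. These values stand for about 208 and 53 reads. The level was 3.91 times as high in WT (interval 2.86 to 5.36), and the log2 difference of -1.47 was called lower. Of all kept genes 1.67% had a log2 difference at or below that of Klf10. Klf10 was the fourth of the 9 genes in WT and the lowest in SIRPα-KO, moving from the percentile 46.0 to 13.0 of kept genes, and none of its 50-base words (0%) occurs in another annotated gene.

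Klf11, the closest relative of Klf10 and also induced by TGF-β, was at 3.23 FPKM in WT against 2.63 in SIRPα-KO. Its level in WT was 1.23 times that in SIRPα-KO, with an interval of 0.961 to 1.58 that includes equality. The ratio of Klf10 to Klf11, which no scaling of the libraries can change, was 1.88 in WT and 0.589 in SIRPα-KO. Klf13, known as an activator of the chemokine gene Ccl5 in T cells, was at 9.59 and 8.30 FPKM, 1.16 times as high in WT (interval 1.03 to 1.29). Ccl5 itself was at 7214 FPKM in WT against 6054 in SIRPα-KO, a log2 difference of -0.25 (named with its values known). Klf9, induced by glucocorticoids and thyroid hormone, was at 1.92 and 2.19 FPKM, a fold of 1.14 with an interval of 0.863 to 1.52.

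**Figure D2:**
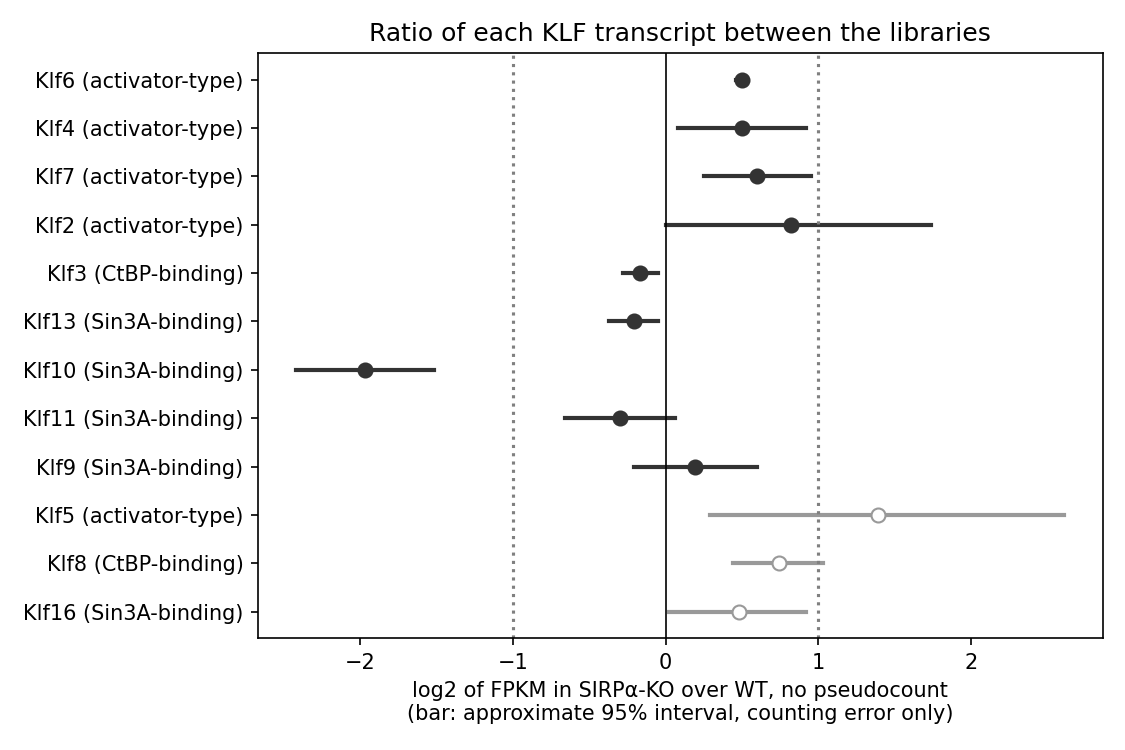
log2 of the SIRPα-KO over WT ratio of FPKM, without an added value, for the 9 KLF genes (filled) and for Klf5, Klf8 and Klf16 (open); bars are approximate 95% intervals for counting error only and dotted lines mark 2-fold. The point of Klf10 lies at -1.97 with a bar from -2.42 to -1.52, while Klf6, Klf4, Klf7 and Klf2 lie between 0.50 and 0.82.

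In WT the order from highest to lowest level was Klf6, Klf3, Klf13, Klf10, Klf11, Klf4, Klf9, Klf7 and Klf2. In SIRPα-KO it was Klf6, Klf3, Klf13, Klf4, Klf11, Klf9, Klf7, Klf2 and Klf10. The counting intervals of neighbours did not overlap from Klf6 down to Klf11 in WT, where Klf10 spanned 5.25 to 6.93 FPKM and Klf11 2.73 to 3.79. From Klf11 downwards in WT, and from Klf4 downwards in SIRPα-KO, each gene's interval overlapped that of its neighbour, so this part of the order is not resolved. In SIRPα-KO Klf10 spanned 1.16 to 2.03 FPKM and Klf2 1.14 to 2.30.

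Of the 9 KLF genes, all of which passed the filter, 1 was called lower and 0 higher, which is 11.1% of them. Beside the 7.73% of all kept genes that were called, 1 call in 9 genes is near the background. The median log2 difference of the KLF genes was 0.13, beside 0.06 for all kept genes, whose central range (quartiles) ran from -0.22 to 0.32. The 4 activator-type genes lay above that upper quartile, Klf10 below the lower one and the other 4 between them. Values above 0 were found for 5 of the 9 genes and for 56.1% of all kept genes. The grouping by partner protein was made with these values known.

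**Figure D3:**
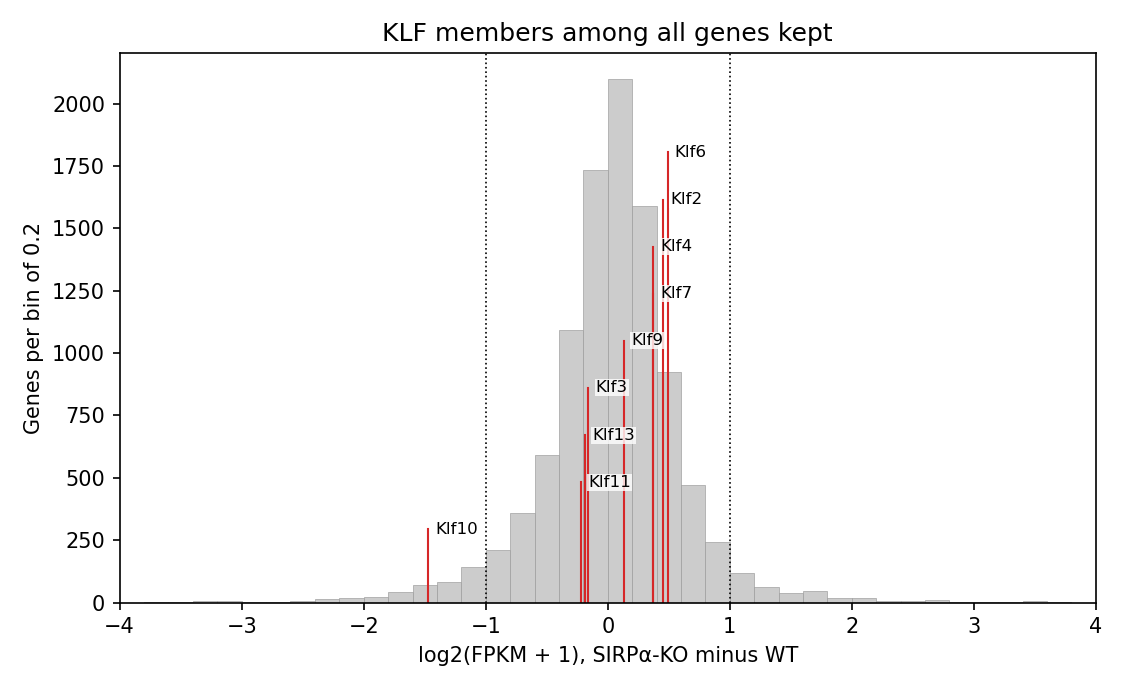
Number of kept genes per bin of the difference in log2(FPKM + 1), SIRPα-KO minus WT (gray bars), with each KLF gene marked by a red line whose height has no meaning; dotted lines mark 2-fold, and the few genes past 4 in either direction are not drawn. Klf10 at -1.47 is the one KLF gene outside the dotted lines, and Klf4 and Klf7 share the line at 0.37.

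Counts of called genes in the lists that follow stand beside 3.43% higher and 4.30% lower among all kept genes, whose median was 0.06. Of the remaining KLF and SP family members, the related factors that bind the same GC-rich DNA, 13 of 17 were analysed and 6 of them passed the filter. Among these 6 genes 0 were called, and their median was 0.25 (0.08 over 11 genes with no filter). The most abundant was Sp3, at 14.41 FPKM in WT against 12.72 in SIRPα-KO. Klf16, of the Sin3A-binding group, was at 2.40 and 3.34 FPKM. Klf5, of the activator-type group, was at 0.26 and 0.68 FPKM, under the filter. The erythroid factor Klf1 and Klf17 were listed at 0 in both libraries, and Klf12 and Klf15 were at 0.05 FPKM or less. Apart from Sp3, these genes were named with their values known.

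The transcripts of KLF partner proteins differed by less than 2-fold throughout, and protein levels were not measured. All 15 corepressor and coactivator genes passed the filter, 0 were called and the median was 0.10. The deacetylase Hdac1, the most abundant, was at 85.3 FPKM in WT against 89.4 in SIRPα-KO. The scaffold Sin3a was at 8.64 and 10.2 FPKM, and the corepressor Ctbp1 at 20.75 and 29.3 (both named with their values known). Of 7 kept genes for ubiquitin ligases that act on KLF proteins, 0 were called and the median was -0.16. Itch had the highest mean level of them, with 11.8 FPKM in WT against 12.9 in SIRPα-KO.

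The kinase ERK5 and MEF2 factors drive Klf2 and Klf4 in endothelium and other cells. Of 9 kept genes of this axis 0 were called higher and 1 lower, with a median of -0.06. The lower gene was Hdac9, a deacetylase that represses MEF2 factors, at 6.99 FPKM in WT against 2.42 in SIRPα-KO. Mapk7, which encodes ERK5, was at 5.85 and 5.58 FPKM, Mef2a at 25.4 and 22.2, and Mef2d at 6.30 and 6.63 (named with their values known). Hdac7, at 2.2 and 0.63 FPKM, was short of the limit with the added 1 and passed the filter only through its WT value. In the other direction, Mef2c was at 0.92 and 1.41 FPKM and Map3k2 at 2.69 and 3.65.

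Genes of the TGF-β pathway, the input by which Klf10 and Klf11 were discovered, had a median of -0.65 over 13 kept genes, with 0 called higher and 2 lower. With a minimum of 5 FPKM the median was also -0.65, over 11 genes. With no filter on low values it was -0.20 over 18 genes, the added ones being under 1 FPKM in both libraries. Its size thus rests on leaving out genes under 1 FPKM. Tgfbr1, the type I receptor, was at 28.1 FPKM in WT against 7.65 in SIRPα-KO, 3.67 times as high in WT. Smad7, the inhibitory SMAD that TGF-β induces, was at 2.08 and 0.18 FPKM, and passed the filter only through its WT value. The ligand gene Tgfb1 was at 101.4 and 63.9 FPKM and the feedback repressor gene Skil at 69.2 and 38.6, neither of them 2-fold apart and both named with their values known. Klf10 and these genes were compared in the same 2 libraries, and a link between them was not tested. Some lists share members, and Smurf1 is in both this list and that of the ubiquitin ligases.

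Genes of the glucocorticoid receptor axis, listed for Klf9, had a median of -0.37 over 7 kept genes, with 0 called higher and 2 lower. The list holds the receptor gene as well as responsive genes, and a response to glucocorticoid was not tested. The lower genes were Zfp36, which encodes a protein that destabilizes inflammatory mRNAs (186 FPKM in WT against 75.8 in SIRPα-KO), and the kinase gene Sgk1 (32.8 and 14.8). The receptor gene Nr3c1 was at 23.9 and 23.65 FPKM and Per1 at 1.91 and 1.89 (named with their values known). Of the remaining kept genes, Fkbp5 was at 2.22 and 0.78 FPKM, Dusp1 at 48.9 and 37.7, and Fkbp4, in the other direction, at 6.47 and 8.53. Fkbp5 was short of the limit with the added 1 and passed the filter only through its WT value.

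Genes reported to be raised by KLF2 or KLF4 had a median of -0.32 over 10 kept genes, with 1 called higher and 1 lower. The lower gene, Arg1, an enzyme of alternative activation, was at 1.02 FPKM in WT and had a listed value of 0 in SIRPα-KO. It passed the filter only through its WT value, its log2 difference of -1.01 is at the edge of the limit, and a minimum of 5 FPKM removes it. Cd14, the lipopolysaccharide co-receptor and a KLF4 target in monocytes, was at 290.2 and 163.8 FPKM, short of 2-fold and named with its values known. The list is small and drawn from several cell types, and several members are under the control of other factors as well.

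Inflammatory genes that KLF2 or KLF4 hold down went both ways, with 3 of 14 called higher, 2 lower and a median of -0.14. Higher in SIRPα-KO were the endothelial-type adhesion genes Sele (0.73 FPKM in WT against 22.2 in SIRPα-KO) and Vcam1 (47.85 and 124.9) and the cytokine gene Il6 (93.6 and 257). Sele passed the filter only through its SIRPα-KO value. Lower were the chemokine genes Ccl3 (606 and 63.5) and Ccl2 (529 and 104.3). The tissue factor gene F3 was at 3.37 and 3.02 FPKM and Tnf at 601 and 696 (named with their values known).

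**Figure D4:**
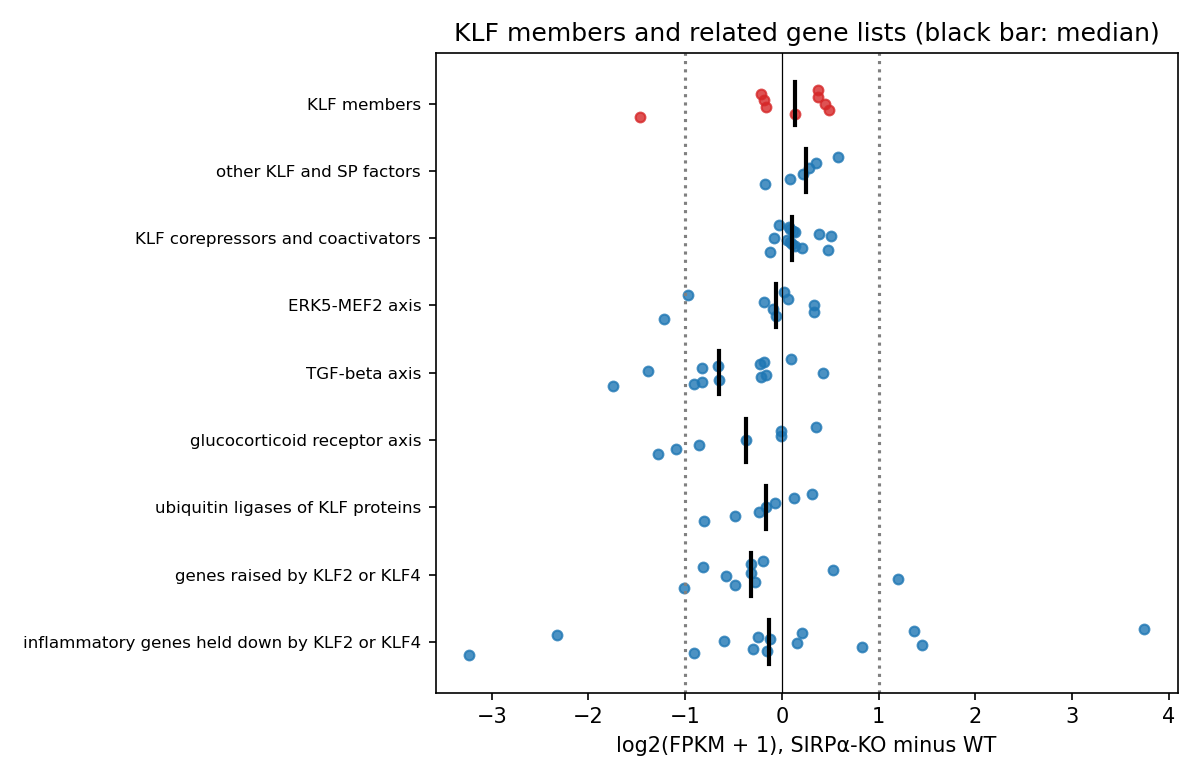
Difference in log2(FPKM + 1), SIRPα-KO minus WT, for each kept gene of the KLF family and of 8 related lists; black bars are medians and dotted lines mark 2-fold. The TGF-β list has a median of -0.65 (-0.20 with no filter), and the corepressor and coactivator genes sit between -0.12 and 0.51.

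Many KLF mRNAs are short-lived, and the pentamer AUUUA is a common part of elements that shorten mRNA life. In the 3′ UTR of the annotated transcript, Klf7 had 18 copies (2.87 per kb), Klf10 had 4 (2.68 per kb) and Klf13 had 3 (0.582 per kb). The density was above the median of 9020 kept genes, 1.39 per kb, in 6 of the 9 KLF genes. The part of mRNA turnover in the differences between the libraries was not tested.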

How the data were processed

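Macrophage RNA from 5 mixed mice per genotype was sequenced with BGI library protocols, per the labels' protocols. The authors deposited 1 value per gene and library, taken here to be FPKM. That unit was inferred: low values step with transcript length, and the sums differ (444294 in WT, 433460 in SIRPα-KO, per the file values). Per the submitters' processing notes, mm9, R 3.3.3 and DESeq2 were used in roles not stated. The aligner is not given in the sources used here, nor is the strand setting. FPKM depends on the transcript length used and on very abundant genes.

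For 1 library per group, differences of log2(FPKM + 1) were computed in Python 3.11.15 (numpy 2.4.6, scipy 1.17.1) without a test. The low values of genes with 1 transcript were scanned for whole reads: 59.1% in WT and 58.8% in SIRPα-KO lay within 0.15 of a whole number at the best depth, against a median over depths of 27.3% and 28.2%, so reads are approximate and no count test was run. Transcripts were from GENCODE release 21 for mouse. The computation was tested on simulated data. Alternatives were a pseudocount of 0.1, other filters, scalings and fold limits. Named genes were the 9 KLF genes, Sirpa, Cd47 (142 against 188 FPKM) and, per list, up to 3 called genes per direction or the most abundant gene; others are marked, and some genes that this rule takes are left out of the text. The KLF genes and lists were chosen with earlier results of these data known.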

Additional observations from a re-analysis of the deposited data

How the results depend on the processing

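Every KLF gene kept the sign of its difference under each pseudocount, filter and scaling that retained it: Klf10 ranged from -1.90 to -1.47, Klf2 from 0.41 to 0.76, Klf6 from 0.42 to 0.50 and Klf9 from 0.08 to 0.18. Median-of-ratios and trimmed-mean scaling each shifted the libraries by 0.07 and put Klf6 at 0.42. With a minimum of 5 FPKM only 4 KLF genes were left and their median was -0.17, because Klf2, Klf4, Klf7, Klf9 and Klf11 fall out. The number of KLF genes called was 1 under every setting except a limit of 3-fold, where it was 0. Of all kept genes, 21.2% were called at 1.5-fold, 2.68% at 3-fold and 12.5% with a pseudocount of 0.1.

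The ERK5 and MEF2 list had 2 called genes, both lower, with a pseudocount of 0.1, with either scaling and with a limit of 1.5-fold, and 0 at 3-fold. With a minimum of 5 FPKM the TGF-β list had 1 called gene and the list of genes raised by KLF2 or KLF4 had 1. At 1.5-fold, where 21.2% of all kept genes were called (10.2% lower), the TGF-β list had 7 called genes, all lower, the ubiquitin ligases 1 and the inflammatory list 8. At 3-fold, where 2.68% of all were called, the TGF-β list had 1, the glucocorticoid list 0, the list of genes raised by KLF2 or KLF4 0 and the inflammatory list 3. Leaving out a replicate could not be done with 1 library per group. No paired analysis was possible because each group has 1 library and no test was run. The approximate reads limit Klf2 most, at about 19 in WT.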

Other observations

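The balance among the KLF genes within a library, which no scaling changes, differed most where Klf10 was involved. Klf6 was 41.0 times as high as Klf10 in WT and 226 times in SIRPα-KO. Klf4 was 0.409 times the level of Klf10 in WT and 2.26 times in SIRPα-KO, so the order of these 2 genes was opposite in the 2 libraries. Klf10 made up 2.04% of the summed KLF level in WT and 0.395% in SIRPα-KO.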
